A study of Mus musculus with 7 samples.

Results

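The genes described here are 10 genes of the canonical Wnt pathway: 5 target genes (Axin2, Sp5, Apcdd1, Nkd1 and Cdx1), 3 transcription factors of the TCF/LEF family (Lef1, Tcf7 and Tcf7l1) and 2 receptors (Lgr4 and Lgr5). They were looked up by gene symbol in the platform annotation, and 9 of the 10 were measured, of 22180 genes in all. Tcf7 was not matched to a probe set and was not analysed here. The study profiled mouse cells, all of strain 129, on 7 whole-transcript Affymetrix arrays to compare induced pluripotent stem cells (iPSC, somatic cells reprogrammed to a pluripotent state) without Nanog with wild-type (WT) pluripotent cells. The groups were WT embryonic stem cells (ESC; 1 array), WT iPSC (2 arrays), Nanog knockout (KO) iPSC (2 arrays), WT mouse embryonic fibroblasts (MEF; 1 array) and Nanog KO MEF (1 array). The iPSC arrays are labelled as biological replicates, but whether the KO iPSC arrays come from separate lines or from cultures of 1 line is not stated, so their p-values may measure only the spread between cultures. The labels name ESC medium, 2i/LIF medium and MEF medium for the series without assigning one to each array. Medium and genotype therefore cannot be told apart.

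In the canonical Wnt pathway, a Wnt ligand binds a Frizzled receptor and an LRP co-receptor and stops a destruction complex, which contains APC, AXIN and the kinase GSK3, from marking beta-catenin for degradation. Beta-catenin then enters the nucleus and joins TCF/LEF factors on target genes. In mouse ESC, Tcf7l1 acts mainly as a repressor of pluripotency genes, and beta-catenin relieves that repression. The 2i medium contains an inhibitor of GSK3, which stabilises beta-catenin, and an inhibitor of the ERK-activating kinase MEK. LGR receptors bind R-spondins and shield Frizzled receptors from the ubiquitin ligases RNF43 and ZNRF3, and Lgr5 is known as a marker of intestinal and hair follicle stem cells.

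TCF/LEF factors recognise DNA with the core CTTTG, often extended to CTTTGAT, so the start sites of 3 members whose levels are described next are shown for orientation. These are the 250 bases before a RefSeq transcript start in the mouse assembly GRCm38.p6, each read 5′ to 3′ on the gene's strand, with CTTTG or its reverse complement CAAAG in capitals. From the table of start sites, 11 windows for 7 of the 10 members were used, none of them for Apcdd1, Cdx1 or Lgr5. Member windows on 1 of the chromosomes were left out, while the shares over all windows given below had no such filter. The Sp5 window is chr2:70474673-70474922 on the plus strand, the Axin2 window chr11:108920099-108920348 on the plus strand and the Tcf7l1 window chr6:72789046-72789295 on the minus strand.
Sp5: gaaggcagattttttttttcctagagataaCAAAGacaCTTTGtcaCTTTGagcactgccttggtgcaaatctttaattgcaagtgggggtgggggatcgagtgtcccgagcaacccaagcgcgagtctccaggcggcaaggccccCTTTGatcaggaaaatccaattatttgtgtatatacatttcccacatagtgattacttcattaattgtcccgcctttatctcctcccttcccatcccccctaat
Axin2: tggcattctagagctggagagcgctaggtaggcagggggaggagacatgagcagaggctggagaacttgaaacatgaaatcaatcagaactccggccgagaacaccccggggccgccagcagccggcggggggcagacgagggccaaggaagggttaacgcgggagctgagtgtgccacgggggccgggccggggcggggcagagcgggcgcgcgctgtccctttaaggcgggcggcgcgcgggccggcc
Tcf7l1: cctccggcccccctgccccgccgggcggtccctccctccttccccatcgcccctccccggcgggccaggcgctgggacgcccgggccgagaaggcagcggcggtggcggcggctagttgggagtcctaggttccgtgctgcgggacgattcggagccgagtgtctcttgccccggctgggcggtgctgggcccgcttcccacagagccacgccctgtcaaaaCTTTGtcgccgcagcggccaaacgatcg
The Sp5 window held 4 cores, which began 220, 212, 204 and 104 bases before the start, the first of them as CAAAG, and the core at 104 continued to CTTTGAT. Of 32851 windows of this length in the table, 0.773% held at least 4 cores on either strand and 3.21% held CTTTGAT. The Tcf7l1 window held 1 core, 28 bases before the start, and 48.6% of windows held at least 1. The Axin2 window, which covers 1 listed transcript start, held 0. Of the windows not shown, those of Lef1, some of which overlap, held 1, 2, 1 and 3 cores. Those of Lgr4, Nkd1 and Tcf7 held 0, so Sp5 had the most cores among the windows used. A match is a string of letters and not evidence of binding, and these arrays carry no measurement of binding.

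All levels are log2 intensities of 1 probe set per gene, so a step of 1 is a doubling, and levels of different genes are not compared. Array medians ran from 7.05 to 7.13. Background was judged on each array by a yardstick, the level that 95% of 1394 odorant (olfactory and vomeronasal) receptor genes stayed under, which ran from 6.30 to 6.50; 61.0% to 63.7% of genes exceeded it. Nanog stood at 12.73 to 12.84 on the WT pluripotent arrays and at 7.50 and 7.44 on the KO iPSC arrays, and whether its probe set lies in the deleted part is not stated. Sox2, a core pluripotency factor, stood at 12.05 to 12.32 on the 5 pluripotent arrays and at 5.68 and 5.65 in MEF. The median of 7 pluripotent cell markers, Nanog and Sox2 among them, was 12.30 to 12.32 on the WT pluripotent arrays. It was 10.10 and 10.14 on the KO iPSC arrays and 6.01 and 5.95 in MEF. The list holds Nanog, the gene knocked out, and the middle marker was Sox2 on the WT pluripotent arrays but Zfp42 on the KO iPSC arrays. Zfp42 itself stood at 9.99 to 10.47 on the WT pluripotent arrays. Taken gene by gene, the median difference of the 7 between KO iPSC and WT pluripotent cells was -0.22. By the test described next, 3 of the 7 were lower in KO iPSC and 0 higher, beside 8.81% and 6.89% of all genes. The median of 11 fibroblast markers was 11.28 in WT MEF and 11.97 in KO MEF. It was 6.59 and 6.60 for the KO iPSC arrays, 9.09 and 7.20 for the WT iPSC arrays and 7.92 for WT ESC, and WT iPSC replicate 1 was the highest WT pluripotent array for all 11. In bulk samples, fewer cells of a type and less RNA per cell cannot be told apart.

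The Wnt targets Axin2, Sp5, Apcdd1 and Cdx1 were higher in KO iPSC than in WT pluripotent cells, Tcf7l1 was lower, and no difference was detected in Nkd1, Lef1, Lgr4 or Lgr5. Against the 3 WT pluripotent arrays, 4 members rose, 1 fell and 4 did not pass an adjusted p of 0.05 (limma, Benjamini-Hochberg adjustment over all 22180 genes, two-sided). By the same rule 6.89% of all genes were higher and 8.81% lower. The median difference of the 9 members was 0.11, against 0.03 over all genes, and over the 5 members listed here as targets it was 0.85. Members and lists were chosen with earlier results of these data known. Over 12 other measured genes reported as Wnt targets, described below, the median was -0.03. Both p and standard error (SE) rest on 2 KO arrays against 3 WT arrays and 3 residual degrees of freedom.

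Axin2, a scaffold of the destruction complex and a direct Wnt target that feeds back on the pathway, stood at 7.65 in WT ESC, at 7.43 and 7.41 in WT iPSC, 8.68 and 8.76 in KO iPSC, 6.90 in WT MEF and 7.94 in KO MEF. Both KO iPSC arrays lay above every other array, and within each cell type KO lay above WT. The difference between KO iPSC and WT pluripotent cells was 1.22 (SE 0.10, adjusted p = 0.0023 in limma), a 2.33-fold rise. A second Axin2 probe set gave 7.34 in WT ESC, at 7.31 and 7.36 in WT iPSC, 8.12 and 7.95 in KO iPSC, 7.06 in WT MEF and 7.64 in KO MEF. It put the arrays of each cell type in the same order of genotypes with a smaller gap, 0.70 in iPSC.

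Apcdd1 encodes a membrane protein that inhibits Wnt signalling at the receptor. It stood at 7.64 in WT ESC, at 8.24 and 8.09 in WT iPSC, 9.97 and 10.04 in KO iPSC, 9.49 in WT MEF and 9.51 in KO MEF. The KO iPSC arrays exceeded all others, the MEF arrays came next and the WT pluripotent arrays were lowest. The difference between KO iPSC and WT pluripotent cells was 2.02 (SE 0.18, adjusted p = 0.00265 in limma), a 4.05-fold rise and the largest among the members in this comparison. MEF also have high Apcdd1. Of 11 fibroblast markers, 0 rose, 1 fell and 10 did not pass in this comparison, beside 6.89% and 8.81% of all genes. Whether fibroblasts in the cultures bear on the Apcdd1 levels was not tested.

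Sp5 encodes a zinc finger factor that is a direct target of beta-catenin in ESC. Its levels were 7.55 in WT ESC, at 7.08 and 7.35 in WT iPSC, 8.08 and 8.27 in KO iPSC, 7.22 in WT MEF and 7.75 in KO MEF. Sp5 rose 1.80-fold in KO iPSC (0.85, SE 0.15, adjusted p = 0.0197 in limma), and the KO and WT pluripotent arrays did not overlap. Cdx1 encodes a caudal-type homeobox factor of the posterior embryo and a Wnt target there. Its levels were 7.32 in WT ESC, at 7.20 and 7.42 in WT iPSC, 8.02 and 7.93 in KO iPSC, 7.18 in WT MEF and 7.25 in KO MEF. The KO iPSC arrays stood above the other 5 arrays, which lay close together, and the rise was 1.58-fold (0.66, SE 0.10, adjusted p = 0.0104 in limma).

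Nkd1 encodes a Dishevelled-binding inhibitor that is induced by Wnt. It was near background in pluripotent cells: 6.70 and 6.38 in KO iPSC, 6.10 and 6.65 in WT iPSC and 6.53 in WT ESC. KO and WT arrays overlapped and the difference was 0.11 (SE 0.19, adjusted p = 0.739 in limma). Its probe set exceeded the yardstick on 4 of 7 arrays, KO MEF (7.45) among them, so changes below the yardstick could not be seen.

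Of the 2 measured TCF/LEF factors among the members, 1 fell, beside 8.81% of all genes. Another factor of this family, Tcf7l2, also fell and is described below with the nuclear partners. Tcf7l1 stood at 11.10 in WT ESC, at 11.43 and 11.57 in WT iPSC, 10.54 and 10.71 in KO iPSC, 10.04 in WT MEF and 10.69 in KO MEF. It fell 1.68-fold in KO iPSC (-0.74, SE 0.16, adjusted p = 0.0295 in limma), and both KO iPSC arrays lay below all 3 WT pluripotent arrays. Lef1, which acts mainly as an activator with beta-catenin, stood at 10.31 in WT ESC, at 9.30 and 9.89 in WT iPSC, 8.79 and 8.71 in KO iPSC, 8.54 in WT MEF and 6.99 in KO MEF. The KO iPSC arrays again lay below every WT pluripotent array, but WT arrays spread widely and the difference of -1.08 (SE 0.28) did not pass (adjusted p = 0.0557 in limma). Without WT iPSC replicate 1, the WT pluripotent array with the highest fibroblast markers, Lef1 was called (-1.35, adjusted p = 0.00779) and Tcf7l1 was not (-0.71, adjusted p = 0.0529). Without WT iPSC replicate 2, Tcf7l1 (adjusted p = 0.0691) and Sp5 (adjusted p = 0.0602) were not called.

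Lgr4, the widely expressed R-spondin receptor, was well above background on all 7 arrays, at 10.75 in WT ESC, at 10.39 and 10.73 in WT iPSC, 10.46 and 10.39 in KO iPSC, 9.66 in WT MEF and 10.14 in KO MEF. KO and WT pluripotent arrays overlapped (-0.20, SE 0.13, adjusted p = 0.366 in limma). Lgr5 stood at 5.94 and 5.95 in KO iPSC, 5.70 and 6.22 in WT iPSC, 6.25 in WT ESC and 6.08 in WT MEF, all below the yardstick. No order can be read from these 6 values. On the KO MEF array Lgr5 stood at 12.38.

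**Figure D1:**
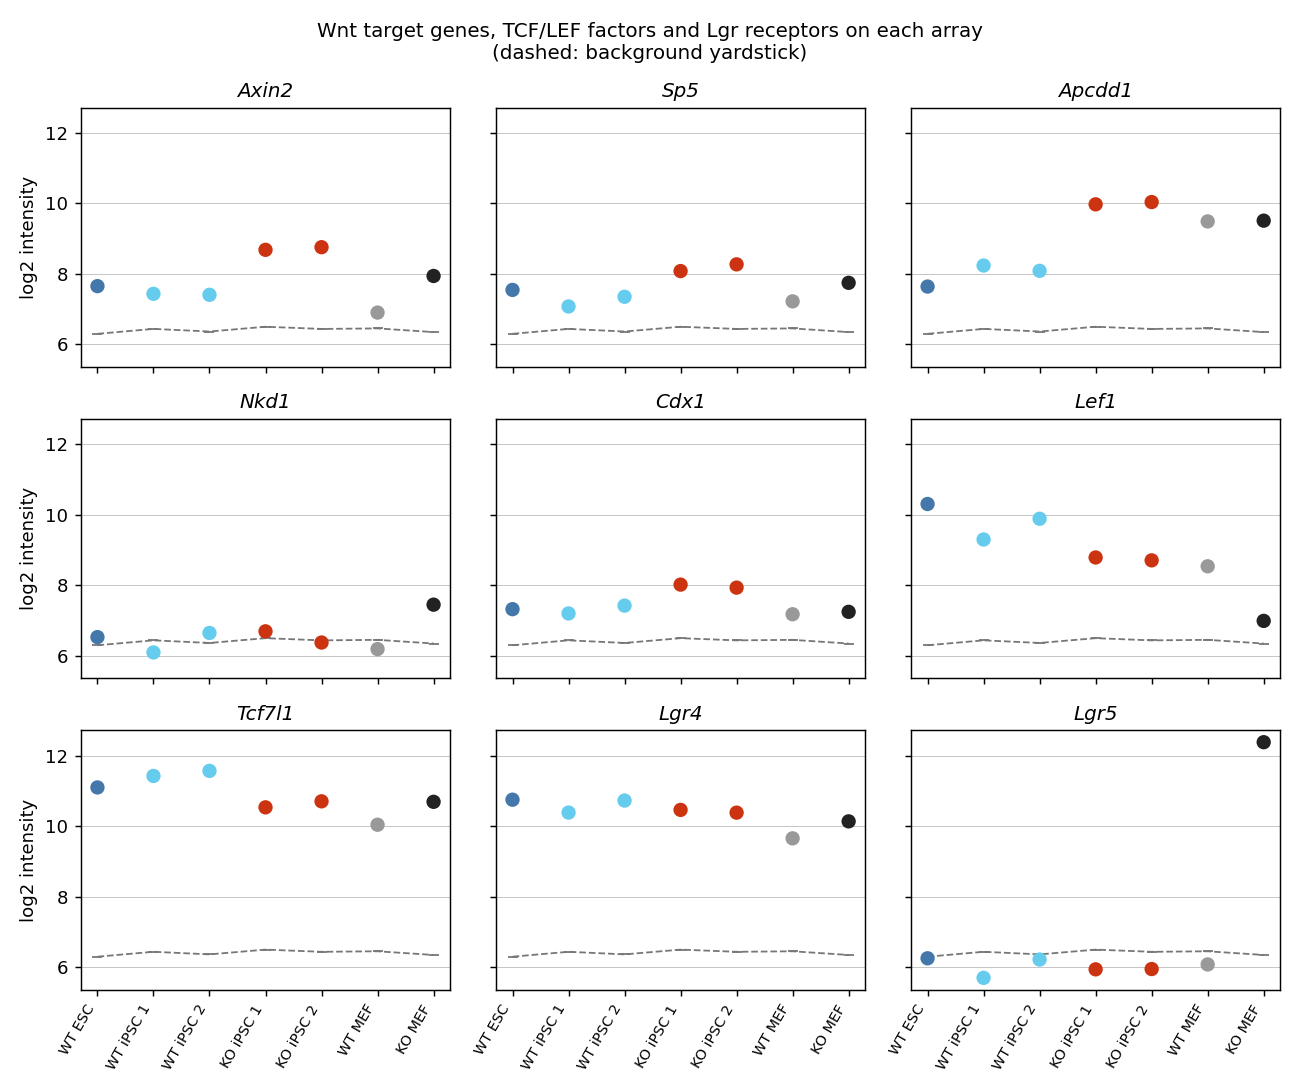
Log2 intensity (vertical axes) of the 9 measured members on each of the 7 arrays, 1 point per array, with the background yardstick of each array. Axin2, Sp5, Apcdd1 and Cdx1 are highest in KO iPSC, Tcf7l1 and Lef1 lie lower there than on the WT pluripotent arrays, and Lgr5 exceeds the yardstick on KO MEF alone.

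Most of these calls needed both KO iPSC arrays. With replicate 1 or replicate 2 left out, or with both averaged and counted as 1 sample, Axin2 alone of the members stayed past the threshold (adjusted p = 0.0471, 0.0489 and 0.0486), while Apcdd1 missed it narrowly (0.0528, 0.0523 and 0.0532, limma with Benjamini-Hochberg adjustment). The differences themselves stayed near their values: without replicate 1 and without replicate 2, Apcdd1 stood at 2.05 and 1.98, Sp5 at 0.95 and 0.76 (adjusted p = 0.124 and 0.166), Cdx1 at 0.62 and 0.70 (0.122 and 0.0946) and Tcf7l1 at -0.66 and -0.83 (0.219 and 0.146).

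Holding cell type fixed, KO iPSC against WT iPSC gave the same 5 members in the same directions, from a fit with 2 residual degrees of freedom that shares 4 arrays with the comparison just given. Apcdd1 rose 3.59-fold (1.84, SE 0.10, adjusted p = 0.00134), Axin2 2.46-fold (1.30, SE 0.09, adjusted p = 0.00204), Sp5 1.95-fold (0.96, SE 0.13, adjusted p = 0.0118) and Cdx1 1.58-fold (0.66, SE 0.11, adjusted p = 0.0194). Tcf7l1 fell 1.84-fold (-0.88, SE 0.11, adjusted p = 0.0085). Lef1 differed by -0.84 (SE 0.20, adjusted p = 0.0516), and Nkd1 (0.16), Lgr4 (-0.13) and Lgr5 (-0.01) did not pass. Over all genes 6.93% were higher and 9.55% lower. Without WT iPSC replicate 1 or 2, Lef1 passed (adjusted p = 0.000831 and 0.0109), and without either KO iPSC array Sp5, Cdx1 and Tcf7l1 did not (adjusted p from 0.0606 to 0.159).

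No member was called between the WT pluripotent groups. Between WT ESC and WT iPSC (1 array against 2), 0 of 9 members passed in limma, where 0.0812% of all genes were called in each direction, and 3 had an unadjusted p under 0.05. Those were Apcdd1 (-0.52, WT ESC lower), Lef1 (0.71) and Tcf7l1 (-0.40). These gaps are smaller than the KO differences of Apcdd1 (2.02), Lef1 (-1.08) and Tcf7l1 (-0.74), a comparison of sizes that was not itself tested. Without WT iPSC replicate 2, which leaves 1 array against 1 with the spread taken from the KO iPSC pair, Apcdd1 (-0.60, adjusted p = 0.0279), Lef1 (1.01, adjusted p = 0.0065) and Lgr5 (0.55, adjusted p = 0.0317, below the yardstick throughout) were called.

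Of 10 genes that respond to ERK signalling, which 2i medium inhibits, 2 rose in KO iPSC against WT pluripotent cells (Egr1 by 3.04 and Spry2 by 0.61), 1 fell (Etv5, -0.40) and 7 did not pass, beside the 6.89% and 8.81% of all genes. Against WT iPSC alone 3 rose, 1 fell and 6 did not pass. The median level of the 10 was 10.71 and 10.73 in KO iPSC, 9.81 and 10.16 in WT iPSC and 10.04 in WT ESC. Of 5 markers of primitive endoderm, 1 rose (Gata6, 1.15), 0 fell and 4 did not pass. Against WT iPSC alone 1 rose, 1 fell and 3 did not pass. Sox7, on that list, stood at 6.15 and 6.25 in KO iPSC, 7.11 and 7.02 in WT iPSC and 6.38 in WT ESC. Wnt targets are active in mesoderm and primitive streak of the embryo. Of 5 measured markers of these, 0 passed in either direction, though Eomes did against WT iPSC (0.45, adjusted p = 0.0316 in limma). The part of medium or of these cell states in the Wnt target levels was not tested.

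Against fibroblasts, with genotype held, Axin2 (0.65, SE 0.10, adjusted p = 0.00683) and Lef1 (1.41, SE 0.23, adjusted p = 0.009) were higher in iPSC by limma, 0 members were lower and 7 did not pass. Over all genes 16.0% were higher and 14.7% lower in iPSC. Lgr4 (0.59, adjusted p = 0.0608), Tcf7l1 (0.69, adjusted p = 0.205) and Cdx1 (0.43, adjusted p = 0.11) lay higher in iPSC without passing. In Apcdd1 (-0.42, adjusted p = 0.516) the WT and KO iPSC arrays lay on opposite sides of the MEF arrays. Without WT MEF, the calls were Apcdd1 (0.50, adjusted p = 0.0274) and Cdx1 (adjusted p = 0.0122) higher and Nkd1 (adjusted p = 0.0496) and Lgr5 (adjusted p = 0.000175) lower, beside Axin2 and Lef1. Without KO MEF they were Tcf7l1 (adjusted p = 0.0018) and Lgr4 (adjusted p = 0.0139) higher and Apcdd1 (-1.33, adjusted p = 0.00174) lower, beside the same 2 genes.

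In fibroblasts the member with the widest gap was Lgr5. Its level was 6.08 in WT MEF, below the yardstick, and 12.38 in KO MEF, a difference of 6.30 and at least 61.0-fold against the WT MEF yardstick. A second Lgr5 probe set read 5.64 in WT MEF and 9.18 in KO MEF, a difference of 3.54, and 5.67 to 5.84 on the pluripotent arrays. Both probe sets thus placed KO MEF far above the other 6 arrays. Each MEF genotype has 1 array, so the pair was not tested on its own and the difference describes these 2 cultures.

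The other members differed less between the MEF arrays. Lef1 was 2.93-fold lower in KO MEF (-1.55), Nkd1 higher by 1.26 (at least 2.00-fold, since WT MEF lay below its yardstick) and Axin2 higher by 1.04 (2.05-fold). Tcf7l1 (0.65), Sp5 (0.53) and Lgr4 (0.48) were higher by less than 2-fold, and Cdx1 (0.07) and Apcdd1 (0.02) were nearly level. By measured values 3 members were past 2-fold higher and 1 past 2-fold lower, where 2.80% and 1.77% of all genes were. Among the 3, the bound for Nkd1 fell just short of 2-fold, and Axin2 was under 2-fold as the mean of its probe sets (0.81). The median of the 9 members was 0.53, against -0.02 over all genes.

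Some fibroblast markers differed between the same arrays: 4 of 11 were past 2-fold higher in KO MEF, 0 past 2-fold lower, and the other 7 were higher by 0.24 to 0.54. Lum, a proteoglycan of the fibroblast matrix, read 5.09 in WT MEF, below the yardstick, and 10.60 in KO MEF. The matrix proteoglycan Dcn read 7.99 and 12.19, the growth factor receptor Pdgfra was higher in KO MEF by 3.10, and the collagen Col3a1 by 1.68. Whether the Lgr5 difference goes with the kind of fibroblast in each culture or with genotype cannot be told apart with 1 array each.

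**Figure D2:**
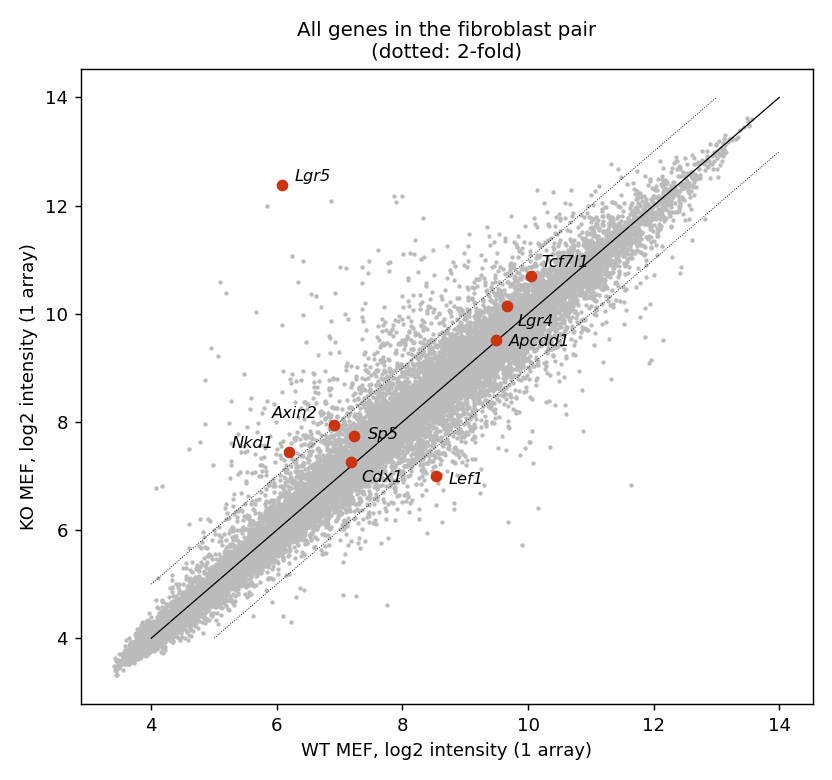
Log2 intensity in KO MEF (vertical axis) against WT MEF (horizontal axis) for all genes, with the 9 members marked and 1 array per genotype. Lgr5 stands apart at 6.08 and 12.38, Nkd1 and Axin2 lie above the diagonal, and Lef1 lies below it at 8.54 and 6.99.

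Genotype differences were unequal between the cell types for 3 members. The interaction, the KO minus WT difference in iPSC less that in MEF, was 1.82 for Apcdd1 (SE 0.17, adjusted p = 0.00905), which was higher in KO iPSC by 1.84 and level in MEF (0.02). It was -1.53 for Tcf7l1 (SE 0.19, adjusted p = 0.0157), with a difference of -0.88 in iPSC and 0.65 in MEF. It was -6.32 for Lgr5 (SE 0.32, adjusted p = 0.00415), which differed by -0.01 in iPSC and by 6.30 in MEF, sizes that rest on values below the yardstick on 6 of 7 arrays. By the same rule 3.07% of all genes were higher and 5.48% lower. The fit assumes that the single MEF arrays vary like the iPSC arrays, which these data cannot check. Without KO iPSC replicate 1 or 2, Apcdd1 (adjusted p = 0.0635 and 0.0669) and Tcf7l1 (0.0917 and 0.0765) did not pass, and Lgr5 did. Without WT iPSC replicate 1, Nkd1 (adjusted p = 0.00977) and Lgr4 (0.016) also passed, and without WT iPSC replicate 2 Cdx1 (0.0238) and Lef1 (0.00728) did. For Axin2, higher in KO in both cell types (1.30 and 1.04), the interaction was 0.26 (SE 0.15, adjusted p = 0.35), and Sp5 (0.44), Cdx1 (0.60), Lef1 (0.70), Lgr4 (-0.62) and Nkd1 (-1.10) did not pass either.

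**Figure D3:**
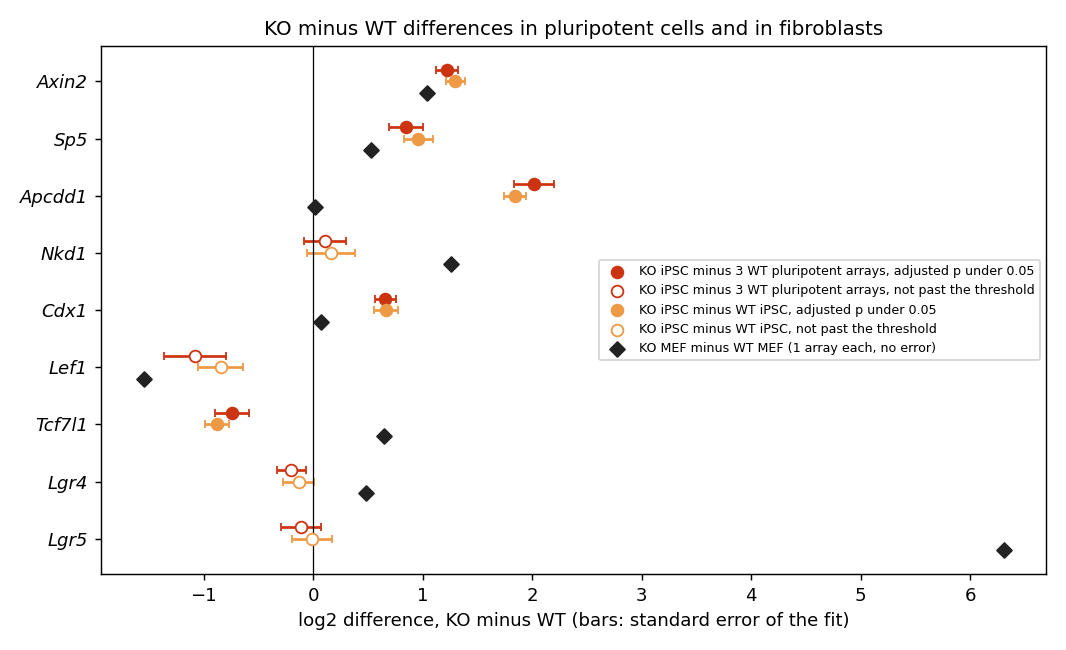
KO minus WT log2 differences (horizontal axis) of the 9 members: circles with standard errors for KO iPSC against the 3 WT pluripotent arrays and against WT iPSC, filled where the adjusted p is under 0.05, and diamonds for the MEF pair, which has no error. Axin2, Sp5, Nkd1, Apcdd1 and Cdx1 lie right of 0 in every comparison, with Apcdd1 and Cdx1 nearly at 0 in MEF. Lef1 lies left of 0 throughout. Tcf7l1 changes side between iPSC and MEF, as do Lgr4 and Lgr5, which lie near 0 in iPSC without passing. The Lgr5 diamond lies at 6.30.

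Of 88 other Wnt pathway genes listed by role, 86 were measured, and in KO iPSC against WT pluripotent cells 7 rose, 6 fell and 73 did not pass, with a median of -0.02. Over all genes, 6.89% rose and 8.81% fell in this comparison. Against WT iPSC, 6 of the 86 rose, 11 fell and 69 did not pass, where 6.93% and 9.55% of all genes did.

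Among 19 Wnt ligands, 0 passed against the WT pluripotent arrays, and Wnt2b (-0.50) and Wnt7b (-0.49) fell against WT iPSC. Wnt2b stood at 5.99 and 6.11 in KO iPSC, below the yardstick, and at 6.58 and 6.51 in WT iPSC, just above it. The size of its fall could therefore not be measured. Of 3 genes of Wnt secretion, Porcn, which encodes the acyltransferase that lipid-modifies Wnt proteins, fell from 11.36, 11.92 and 11.41 on the WT pluripotent arrays to 10.46 and 10.54 (-1.06, SE 0.18, adjusted p = 0.0168 in limma). Porcn is X-linked, and the median difference of 507 X-linked genes above background was -0.20 against -0.01 for 14669 autosomal genes, whose part in the Porcn difference was not tested. Of 12 Frizzled and LRP receptors, Fzd5 rose (0.53) and 0 fell. Of 7 R-spondins, Lgr6 and E3 ligases, the ligases Rnf43 (0.44) and Znrf3 (0.46), both known as feedback targets, rose and 0 fell. Rnf43 was near background on the WT pluripotent arrays, at 6.36 in WT ESC and 6.51 and 6.49 in WT iPSC. Of 12 secreted antagonists, Sfrp2 fell (-0.72) and 0 rose.

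Inside the cell, Apc (0.45) and the Dishevelled protein Dvl2 (0.63) rose among 10 measured genes of the destruction complex and Dishevelled. Beta-catenin itself, Ctnnb1, lay between 11.66 and 11.92 on all 7 arrays. Of 11 nuclear partners, the TCF/LEF factor Tcf7l2 (-0.55), the corepressor Tle3 (-0.50) and its relative Tle5 (-0.80) fell and 0 rose. Of 12 other reported targets, the BMP pseudoreceptor Bambi rose (0.93, adjusted p = 0.00709) and the cyclin Ccnd1 fell (-1.56, SE 0.10, adjusted p = 0.00119 in limma), from 11.25 to 11.52 on the WT pluripotent arrays to 9.84 and 9.81. Sp8 was also called higher (0.44), but its probe set lay below the yardstick on all 7 arrays. Reported Wnt targets thus did not all move one way in KO iPSC.

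**Figure D4:**
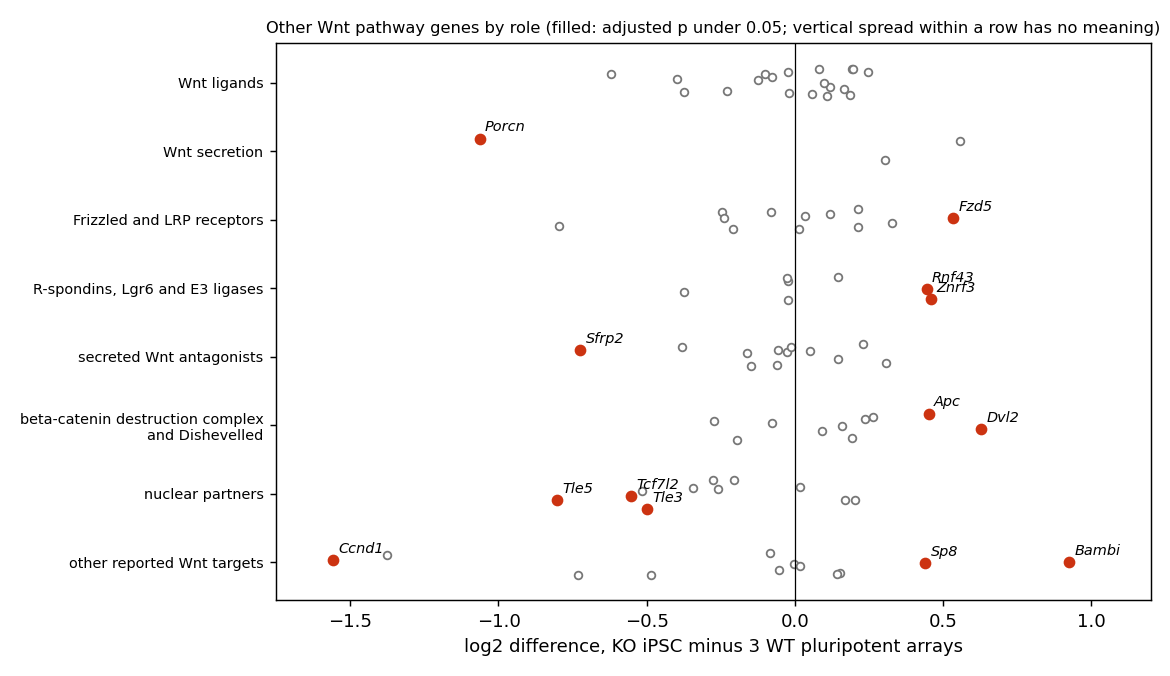
Log2 differences between KO iPSC and the 3 WT pluripotent arrays (horizontal axis) for 86 other Wnt pathway genes grouped by role (rows), 1 circle per gene, filled and named where the adjusted p is under 0.05. The 19 ligands hold no filled circle, and the filled circles run from Ccnd1 at -1.56 to Bambi at 0.93.

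In the MEF pair, 12 of these 86 genes were past 2-fold higher in KO MEF and 0 past 2-fold lower, with a median of 0.07. Of all genes, 2.80% and 1.77% were. The secreted antagonist Sfrp2 was higher in KO MEF by 3.86. The antagonist Sfrp1 (2.07), the Nkd1 relative Nkd2 (1.69) and Porcn (1.67) were also higher there. Frzb and Wnt16, below the yardstick in WT MEF, were at least 2.15-fold and at least 2.16-fold higher. In the interaction test 2 of the 86 were higher and 16 lower, where 3.07% and 5.48% of all genes were. KO minus WT was thus smaller in iPSC than in MEF for those 16, with Sfrp2 (-4.56) and Porcn (-2.84) at the low end.

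The profile over the 7 arrays was compared with other genes as a description. Among 6941 genes above background with a range of at least 1, those most like Axin2 were Avl9 (Pearson r 0.992), Hs1bp3 (0.986), Aldh1l1 (0.984), Ppfibp2 (0.980) and Nsmce1 (0.980). Those most like Lgr5 were Sema3b (0.997), Lrrn4cl (0.996), Crispld1 (0.995), Cxcl15 (0.995) and Lum (0.994), and the single KO MEF array sets each of these values. Among the members, Axin2 ran closest to Sp5 (0.94) and Cdx1 (0.89), while Apcdd1 and Tcf7l1 ran opposite (-0.75). The points share the same 7 arrays, which fall into separate cell types.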

How the data were processed

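RNA of 7 samples was hybridised to 1 Affymetrix array each. The deposited table gives a linear intensity per probe set. Per the submitters' processing notes, RMA in version 1.3.0.187 of Affymetrix Expression Console produced it. Its background correction was kept and can compress differences of dim genes. Here log2 was taken with no further scaling. Of 33649 probe sets, 23521 carried 1 gene symbol and 10128 several or none and were left out. For the 1082 genes with several probe sets, the one with the highest mean stood for the gene, which gave 22180 genes, none filtered. Arrays have no read depth, and their number limits the precision. No column was unmapped (0).

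Tests used limma 3.58.1 (R 4.3.3; eBayes after lmFit, two-sided, Benjamini-Hochberg adjustment over all 22180 genes, threshold 0.05). KO iPSC were fitted against the WT pluripotent arrays on 5 arrays. The interaction, KO against WT iPSC and the ESC comparison came from all 7 arrays with 1 coefficient per group, and iPSC against MEF from an additive fit of 6 arrays. All comparisons share arrays, so their calls are not independent. Where the dim side lay below its yardstick, the fold was taken against the yardstick and written "at least". The fits were tested on simulated data with 200 changed genes.

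The members and lists were chosen with earlier results of these data known. Named were all members, the pathway genes past the threshold in KO iPSC against WT pluripotent cells (at most 3 per list, by size) and the 5 genes most like Axin2 and Lgr5. Other genes named were chosen after their values were seen. Tcf7, Gsk3a, Tbxt and Fbn1 were not matched to a probe set, and Aes was matched as Tle5. Start-site windows are from RefSeq (GRCm38.p6), and only the bases before the start were used. The alternatives tried were centring, quantile normalization, eBayes with trend and robust, a filter on dim genes, the mean over probe sets, leaving out each array, both KO iPSC arrays as 1, and the replicate number as a block.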

Additional observations from a re-analysis of the deposited data

Results flagged for a closer look

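For 3 members the KO minus WT difference was unequal in iPSC and MEF by the interaction test in limma, with 1 MEF array per genotype. Apcdd1 had an interaction of 1.82 (adjusted p = 0.00905): 1.84 higher in KO than in WT iPSC, with 9.49 in WT MEF and 9.51 in KO MEF. Tcf7l1 had an interaction of -1.53 (adjusted p = 0.0157): -0.88 in iPSC and 0.65 in MEF. Lgr5 had an interaction of -6.32 (adjusted p = 0.00415): -0.01 in iPSC, where every array was below the yardstick, and 6.30 in MEF. The SE of all 3 comes from the iPSC groups alone.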

How the results depend on the processing

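Centring, quantile normalization and the mean over probe sets left the members' counts of calls as given in every tested comparison; centring moved the median of all genes in the interaction from 0.04 to 0.12, and by under 0.1 elsewhere. In KO iPSC against WT pluripotent cells (4 higher, 1 lower), leaving out 1 array gave 1 to 4 higher and 0 to 1 lower. Both KO iPSC arrays counted as 1 gave 1 higher and 0 lower. Leaving out the dimmest genes (0.333 of all, by mean level) gave 2 lower, since fewer genes were tested and Lef1 then passed (adjusted p = 0.0472). In KO against WT iPSC (4 and 1), leaving out 1 array gave 2 to 4 higher and 0 to 2 lower. There, 2 were lower with trend and robust (Lef1, adjusted p = 0.0359) and 2 without the dimmest genes (Lef1, adjusted p = 0.0485). The replicate number as a block also gave 2 lower (Lef1, adjusted p = 0.0469) and 1331 genes higher and 1948 lower, against 1538 and 2118 without it; the iPSC share only a number, and their deviations correlated at 0.017. Leaving out 1 array gave 0 to 2 higher and 0 to 1 lower between WT ESC and WT iPSC, 2 to 4 and 0 to 2 between iPSC and MEF, and 0 to 3 and 1 to 4 for the interaction. Over its probe sets the MEF difference averaged 0.81 for Axin2 and 4.92 for Lgr5, an alternative chosen after seeing the data. The sign turned with 1 array left out in members that had not passed. In KO iPSC against WT pluripotent cells Nkd1 then ran from -0.054 to 0.27. Against WT iPSC, Nkd1 ran from -0.11 to 0.44, Lgr4 from -0.30 to 0.037 and Lgr5 from -0.27 to 0.24 (0.039 when centred). Between WT ESC and WT iPSC, Nkd1 ran from -0.12 to 0.43 and Cdx1 from -0.10 to 0.12. Between iPSC and MEF, Apcdd1 ran from -1.33 to 0.50, Tcf7l1 from -0.071 to 1.46, Sp5 from -0.0075 to 0.43 and Nkd1 from -0.92 to 0.18. Apart from the filter on dim genes, the cause of these changes was not tested.

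Over all genes, leaving out a KO iPSC array cut the calls against WT pluripotent cells from 1529 higher and 1954 lower to 157 and 184 (replicate 1) or 173 and 230 (replicate 2), and both counted as 1 gave 159 and 206. Without WT iPSC replicate 2 they were 947 and 1283. Centring gave 1910 higher and 1620 lower there. Against WT iPSC, the calls ranged from 212 to 2504 higher and from 307 to 3475 lower with 1 array left out, and in the interaction from 19 to 2084 and from 70 to 2932, against 682 and 1215. Between WT ESC and WT iPSC (18 each) they ranged from 0 to 1095 and from 1 to 1194, with 37 and 58 under trend and robust and 9 higher without the dimmest genes. Between iPSC and MEF (3540 and 3262) the fewest were 2250 and 2155. Signal over background limits Nkd1 and Lgr5 in pluripotent cells, where lower levels could not be measured.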
